A study of Rattus norvegicus with 13 samples.

Results

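Solute carriers are the membrane proteins, named Slc in the rat, that move amino acids, sugars, organic acids, ions, metals, vitamins and nucleosides across cell and organelle membranes. The 175 probe sets described here, of 8740 that were not array controls, are those to which the array's annotation gives 1 gene symbol that begins with Slc and a digit. They stand for 115 of the 4736 genes that probe sets with 1 symbol name. The rule left out Slc25a1, Slc37a4, Slc2a2, Slc10a1 and Slc30a1. The rule itself uses no measured value. A probe set is a group of short oligonucleotides for 1 transcript, and it is named by its identifier where a gene has several.

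Liver RNA of time-mated female Sprague Dawley rats was hybridised to 13 one-colour Affymetrix arrays. EtOH-160 (n = 4) were undernourished rats on an ethanol diet, with 160 kcal for each kg of body weight raised to 0.75 per day and 12 g ethanol per kg per day. TEN-160 (n = 3) were undernourished rats with the same 160 kcal and no ethanol. EtOH-220 (n = 3) had the same ethanol dose of 12 g with 220 kcal, and TEN-220 (n = 3) had 220 kcal without ethanol. All groups, controls included, were mated females of this outbred stock. Whether each array stood for 1 rat or for pooled rats is not stated in the labels, so p-values measure only the spread between these arrays, and the stage of gestation is not known here.

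The hepatocyte takes up amino acids from portal blood through families such as the cationic carriers of Slc7 and the sodium-coupled carriers of Slc6, and some Slc7 carriers reach the membrane only as partners of the heavy chain Slc3a2. Bicarbonate, chloride and sulfate exchange through Slc4, Slc12 and Slc26 proteins helps to set cell pH and volume and contributes to bile formation. In mitochondria, Slc25 carriers pass phosphate, dicarboxylates and adenine nucleotides between matrix and cytosol, and Slc27 proteins bring in or activate fatty acids for oxidation.

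The arrays of TEN-160 stood apart from the other 10 in ways that concern every comparison with them. The ratio of the signals for both ends of the bacterial control transcript BioDn (5' over 3') was 0.422 to 0.497 on the TEN-160 arrays, against 0.132 to 0.21 on the other arrays. A mouse Il10 control probe set read 48.3 to 71.3 on the TEN-160 arrays, against 8.67 to 20 on the other arrays. The 3'/5' ratio of GAPDH probe sets, which reflects how intact the RNA was, ran from 1.5 to 1.73 in EtOH-160, 1.03 to 1.24 in TEN-160, 1.04 to 1.47 in EtOH-220 and 1.52 to 2.32 in TEN-220. The same ratio of beta-actin gave another order. It ran from 1.77 to 2.31 in EtOH-160, 1.91 to 2.96 in TEN-160, 1.93 to 2.18 in EtOH-220 and 1.97 to 3 in TEN-220, so TEN-160 overlapped every group. Diet and these differences between arrays cannot be told apart in EtOH-160 against TEN-160, in TEN-160 against TEN-220 or in the interaction, which contains both. The labelled tissue was checked on its defining markers: 15 of 16 hepatocyte probe sets were above background in every group. Their summed signal was 326000 to 333000 in EtOH-160, 304000 to 317000 in TEN-160, 323000 to 339000 in EtOH-220 and 311000 to 325000 in TEN-220. TEN-160 was below both ethanol groups and overlapped TEN-220. In EtOH-160 against TEN-160, Cps1 was higher on M11710cds_s_at (0.74, limma adjusted p = 0.0168). Lower there were Apoa1 on M00001_i_at (-0.83, adjusted p = 0.0228) and Ttr on rc_AA945169_g_at (-0.36, adjusted p = 0.0258). Another tested probe set of Cps1, Apoa1 and Ttr had 0.09, 0.14 and 0.32, none with an adjusted p under 0.05. Apoa1 on M00001_i_at was also higher in TEN-160 than in TEN-220 (0.78, limma adjusted p = 0.0458). Markers of other liver cells differed between the groups as well. The summed signal of the endothelial list (4 of 6 genes on the array) was 539 to 728 in EtOH-160, 748 to 1180 in TEN-160, 587 to 698 in EtOH-220 and 438 to 510 in TEN-220, so that TEN-160 was above the other groups. Of that list, Lyve1 (change 0.87, limma adjusted p = 0.0202) and Kdr (1.55, adjusted p = 0.0114) were higher in TEN-160 than in TEN-220, and Lyve1 was lower in EtOH-160 than in TEN-160 (-0.70, adjusted p = 0.0332). The macrophage list (4 of 9 genes) summed to 5520 to 5810 in EtOH-160, 4850 to 7750 in TEN-160, 4840 to 6160 in EtOH-220 and 5370 to 5990 in TEN-220. Its members went both ways in EtOH-160 against TEN-160. Both Cd14 probe sets were higher (1.57 and 0.81, limma adjusted p = 0.000723 and 0.00488), and C1qb was lower on X71127_g_at (-0.81, adjusted p = 0.00798). C1qb on X71127_at had -0.34 and Lyz2 had -0.59, neither with an adjusted p under 0.05. The stellate list (4 of 6 genes) summed to 926 to 1590 in EtOH-160, 1140 to 4200 in TEN-160, 834 to 1590 in EtOH-220 and 1260 to 1310 in TEN-220. Of 4 Col1a1 probe sets, 1 was lower in EtOH-160 than in TEN-160 (-2.29, limma adjusted p = 0.0288). The others had -0.14, -0.49 and -0.30, and Dcn had 0.65 and 0.39 on its tested probe sets, none with an adjusted p under 0.05. In TEN-160 against TEN-220, Dcn was higher on X59859_i_at (2.16, adjusted p = 0.0342), where TEN-220 was under the background. On Z12298cds_s_at it had 0.29 (adjusted p = 0.68). The part of these cells in the results on solute carriers was not tested. In bulk tissue, fewer cells of a type and less RNA per cell cannot be told apart.

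Most solute carrier probe sets read above the background in this liver, in nearly the same proportion as all non-control probe sets. The background, set at the 95th percentile of 19 bacterial and yeast control probe sets, was a signal of 43.9. Of the 175 probe sets, 131 were above it in the mean of at least 1 group and 104 in all 4 groups, or 59.4% against 59.8% of all non-control probe sets. The other end held 27 probe sets below it on every array. A signal above this background does not by itself show that the named gene was expressed. Of 6 probe sets for markers of kidney tubules, 4 were above it in EtOH-160, 5 in TEN-160, 4 in EtOH-220 and 3 in TEN-220. Whether such signals come from the named transcript was not tested. The test used the probe sets outside the lowest 40% by mean signal, which left 104 of the 175 (81 genes). The 71 others included every probe set of Slc2a1, the glucose carrier of the blood-brain barrier, with a mean signal of 17.7 and 33.1 on its 2 probe sets. All 3 probe sets of Slc7a1, the widespread cationic amino acid carrier, were also left out, with means of 9.34, 12 and 24.4. Just under the background in mean signal was Slc16a6 (42.2) and just above it Slc12a3 (45.1), neither of them tested.

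The 5 brightest probe sets, in order of mean signal, were those of Slc27a2 (10677), a very-long-chain acyl-CoA synthetase and fatty acid transport protein, Slc25a5 (5721), an ADP/ATP carrier of the inner mitochondrial membrane, Slc41a2 (2744), a magnesium carrier, Slc25a10 (2370 on AJ223355_g_at), the dicarboxylate carrier, and Slc25a3 (2204), the mitochondrial phosphate carrier. At the other end, 4 probe sets read 9.34, the floor, on every array; they were single probe sets of Slc6a2, Slc7a1, Slc12a1 and Slc15a1, and Slc1a6 followed at 9.38. Signals of different probe sets depend on their oligonucleotides, so this order is of signals and not of transcript amounts.

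With ethanol under undernutrition, 15 probe sets were higher and 3 lower in EtOH-160 than in TEN-160 in limma's test. By size of change the higher ones began with the creatine carrier Slc6a8, the anion exchanger Slc4a2, the fructose carrier Slc2a5 and the glycine carrier Slc6a9, and the lower ones with the monocarboxylate carrier Slc16a1. The 18 called are 17.3% of the 104 tested, against 22.3% of all 5244 probe sets tested. By direction, 14.4% were higher, against 11.9% of all, and 2.88% lower, against 10.4% of all. At an unadjusted p under 0.05 there were 33 (31.7%, against 35.6% of all), and the arrays of both groups did not overlap in 28 (26.9%, against 31.1%). A call is an adjusted p under 0.05 from limma, with Benjamini-Hochberg adjustment over all probe sets tested. The median change was 0.13 on the log2 scale, against 0.02 over all probe sets tested. Positive changes numbered 70 of 104 (67.3%, against 51% of all). Centring each array on its median gave 22 higher and 1 lower, and it moved the median of all probe sets to 0.13. Values as deposited, in which 1 TEN-220 array is unscaled, gave 0 calls.

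Undernutrition without ethanol had mostly lower calls. In TEN-160 against TEN-220, 3 probe sets were higher and 14 lower, or 16.3% of those tested, against 17.8% of all. The lower calls were 13.5% of the solute carriers, against 9.94% of all, and the higher calls 2.88%, against 7.84%. At an unadjusted p under 0.05 there were 28 (26.9%, against 31.5% of all), and the arrays did not overlap in 34 (32.7%, against 36.5%). The median change was -0.11, against -0.03 over all probe sets tested. Both comparisons share the 3 TEN-160 arrays, so a value that stands out on those arrays enters both with opposite sign. In 9 probe sets of 8 genes both were called, and 26 probe sets of 22 genes were called in either. The matching shares of all probe sets tested were not counted, so these counts say nothing particular to solute carriers. Values as deposited gave 5 higher and 1 lower here, with a median over all probe sets of 0.70.

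**Figure D1:**
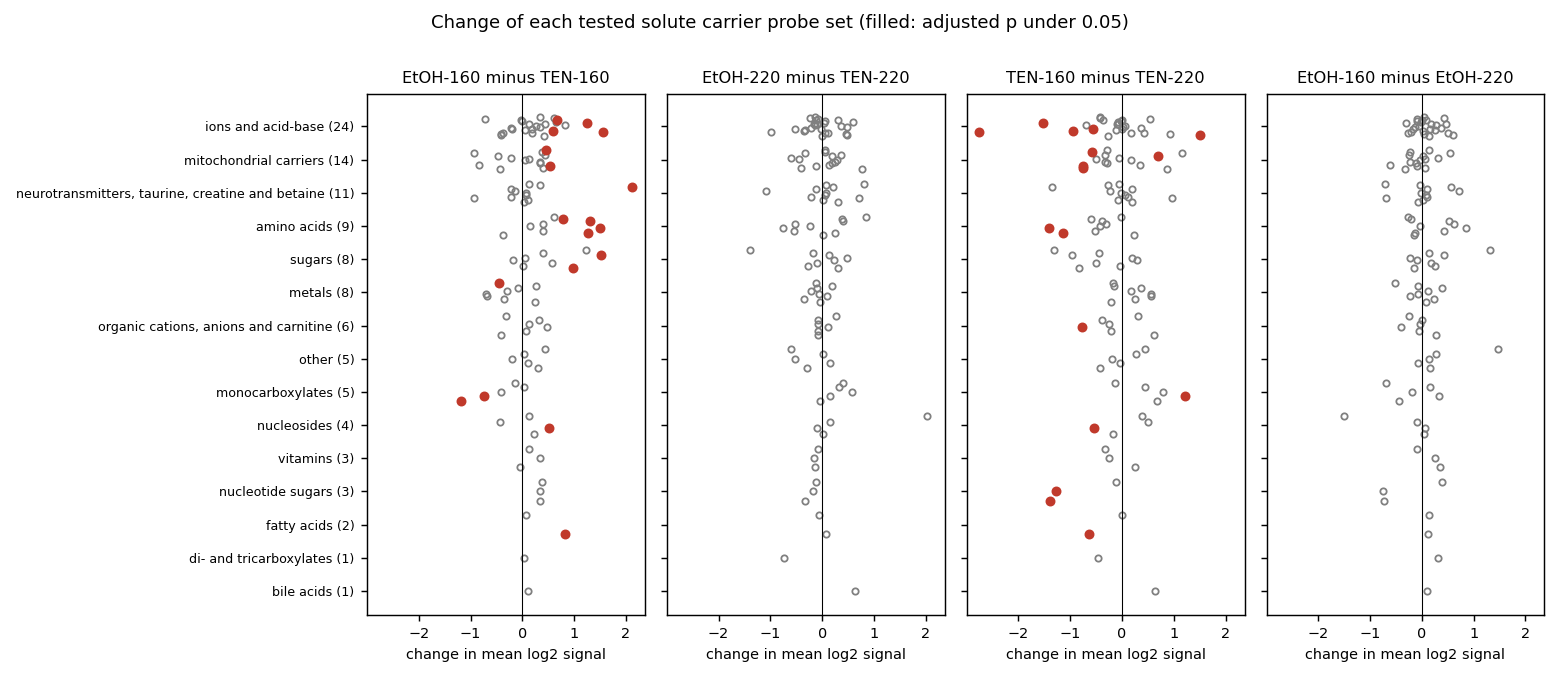
Change in mean log2 signal of each of the 104 tested probe sets in the 4 pairwise comparisons (x axis), grouped by substrate (rows, with the number of tested probe sets); 1 circle is 1 probe set and filled circles have an adjusted p under 0.05. Filled circles occur in EtOH-160 minus TEN-160 (15 right and 3 left of 0) and in TEN-160 minus TEN-220 (3 right and 14 left), and none in the comparisons without TEN-160.

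Amino acid carriers were the group with the highest median change under ethanol at 160 kcal among those with at least 3 tested probe sets. Of their 9 tested probe sets, 4 were higher in EtOH-160 than in TEN-160 and 0 lower, beside 11.9% higher and 10.4% lower among all 5244 probe sets, with a median change of 0.60. Groups of this few probe sets give only coarse shares, and these counts and those of the groups below were not tested. Another 19 of the 28 amino acid probe sets were too dim to be tested. In TEN-160 against TEN-220, 0 were higher and 2 lower, beside 7.84% higher and 9.94% lower of all, with a median of -0.42.

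Slc6a9 encodes the glycine transporter GlyT1. Its signal was 1045, 538, 641 and 886 in EtOH-160, 334, 372 and 151 in TEN-160, 319, 459 and 489 in EtOH-220 and 758, 648 and 703 in TEN-220. The TEN-160 arrays were below all EtOH-160 and all TEN-220 arrays, and EtOH-220 lay below TEN-220 without overlap. The level was 1.5 higher in EtOH-160 than in TEN-160 on the log2 scale (SE 0.30, limma adjusted p = 0.00382) and 1.40 lower in TEN-160 than in TEN-220 (change -1.40, SE 0.32, adjusted p = 0.0099). EtOH-220 minus TEN-220 was -0.76 (SE 0.32, unadjusted p = 0.0356, adjusted p = 0.483).

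Slc3a2 encodes the heavy chain, also called 4F2hc or CD98, that carries the light chains of several Slc7 exchangers to the membrane. Probe set AB015433_s_at read 1181, 1163, 877 and 924 in EtOH-160, 334, 697 and 337 in TEN-160, 1514, 850.3 and 1104 in EtOH-220 and 1127, 742 and 1018 in TEN-220. All 3 TEN-160 arrays were below each of the other 10. It was 1.26 higher in EtOH-160 than in TEN-160 (SE 0.27, limma adjusted p = 0.00555), and the change in TEN-160 against TEN-220 was -1.15 (SE 0.29, adjusted p = 0.0159). That last call ended without TEN-160 replicate 1 or 3 or TEN-220 replicate 1, with an adjusted p of up to 0.0684. The other probe set, X89225cds_s_at, read 545, 513, 542 and 318 in EtOH-160 and 293, 324 and 209 in TEN-160, with 1 EtOH-160 array inside the TEN-160 range. Its change was 0.79 (SE 0.26, adjusted p = 0.0402), and the call ended when any of 8 single arrays was left out (EtOH-160 replicate 1, 2 or 3, TEN-160 replicate 1 or 3, EtOH-220 replicate 2, TEN-220 replicate 1 or 2), with an adjusted p of up to 0.155.

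Slc7a5, the large neutral amino acid carrier LAT1 and a light chain partner of Slc3a2, did not follow it. It read 376, 357, 360.3 and 369 in EtOH-160, 453, 516 and 459.6 in TEN-160, 424, 441 and 364 in EtOH-220 and 447, 366 and 405 in TEN-220. Here the TEN-160 arrays were above each of the other 10, by a small margin. EtOH-160 minus TEN-160 was -0.38 (SE 0.14, limma adjusted p = 0.0675), which is not a call.

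Slc7a2, the cationic carrier CAT-2 for arginine, lysine and ornithine, read 152, 205, 194 and 191 in EtOH-160, 106, 83.3 and 46.3 in TEN-160, 128, 113 and 145 in EtOH-220 and 120.3, 91.6 and 83 in TEN-220. EtOH-160 was above every other array, and the TEN-160 and TEN-220 ranges overlapped. It was 1.31 higher in EtOH-160 than in TEN-160 (SE 0.27, limma adjusted p = 0.00417), while TEN-160 minus TEN-220 was -0.39 (adjusted p = 0.381). In the same comparison the glutamate carrier Slc1a1 had a change of 0.41 on its 1 tested probe set, the glutamate carrier Slc1a2 had 0.60 and 0.40 on its 2, and the cystine carrier subunit Slc3a1 had 0.15, none of them called.

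**Figure D2:**
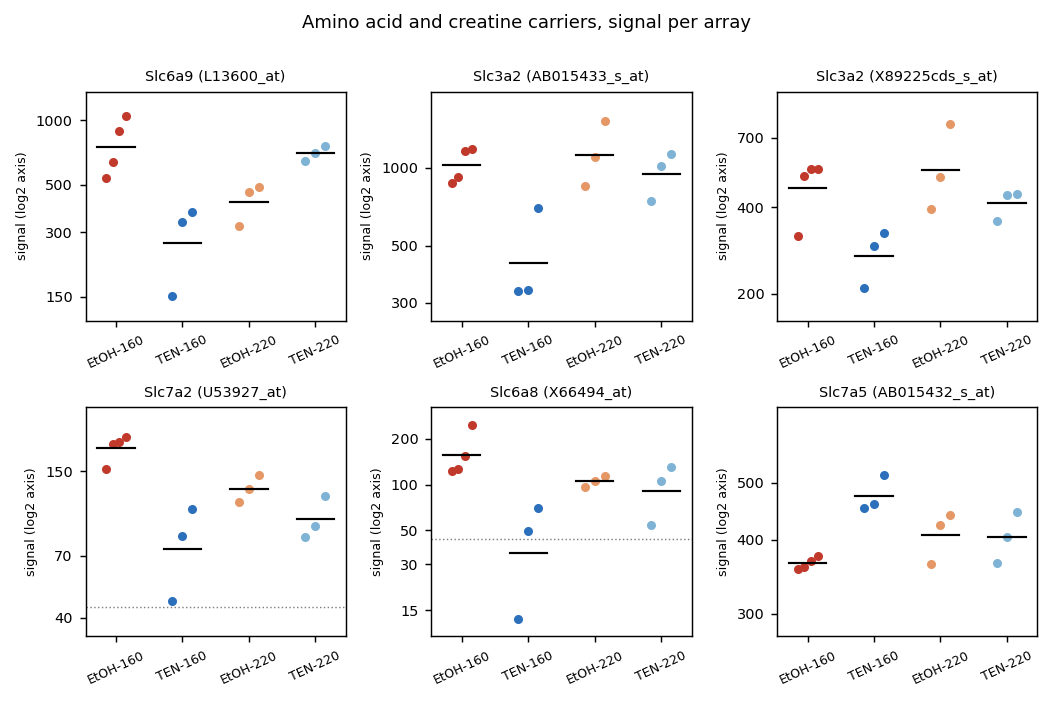
Normalized signal (y axis, log2 spacing, 1 panel per probe set) on each array of EtOH-160, TEN-160, EtOH-220 and TEN-220 for amino acid carriers and the creatine carrier Slc6a8; points are arrays, bars are geometric means and the dotted line, where drawn, is the background of 43.9. TEN-160 has the lowest mean for Slc6a9, Slc3a2, Slc7a2 and Slc6a8 and the highest for Slc7a5.

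Among carriers for neurotransmitters, taurine, creatine and betaine, 1 of 11 tested probe sets was called in EtOH-160 against TEN-160, beside 22.3% of all. Slc6a8, the creatine carrier, read 123, 246, 153 and 126 in EtOH-160, 49.5, 69.9 and 13.1 in TEN-160, 106, 96.5 and 114 in EtOH-220 and 105, 131 and 54.1 in TEN-220. TEN-160 was below EtOH-160 on every array, and its geometric mean of 35.7 was under the background. Against that background the level in EtOH-160 (155) was at least 3.54-fold higher (fitted change 2.12, SE 0.49, limma adjusted p = 0.00803). TEN-160 minus TEN-220 was -1.34 (adjusted p = 0.0932), not called, and 1 TEN-220 array lay within the TEN-160 range.

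The taurine carrier Slc6a6 ran the other way without a call. It read 178, 70.8, 207 and 128 in EtOH-160, 345, 236 and 214 in TEN-160, 253, 140.1 and 289.6 in EtOH-220 and 121, 86.6 and 221 in TEN-220. TEN-160 lay above every EtOH-160 array and overlapped TEN-220, and EtOH-160 minus TEN-160 was -0.94 (limma adjusted p = 0.106). Slc6a13, a GABA and taurine carrier known in rodent liver, had group levels of 1207, 1115, 1190.0 and 1183 in EtOH-160, TEN-160, EtOH-220 and TEN-220, and its largest pairwise change was 0.11.

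Ion and acid-base carriers were the largest group, with 24 tested probe sets of 16 genes. Of these, 4 were higher and 0 lower in EtOH-160 than in TEN-160 (median change 0.22; 11.9% and 10.4% of all), and 1 was higher and 4 lower in TEN-160 than in TEN-220 (median -0.08; 7.84% and 9.94% of all). The chloride-bicarbonate exchanger Slc4a2, the potassium-chloride cotransporter Slc12a4 and the sulfate-anion exchanger Slc26a1 supplied most of these calls.

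Slc4a2, known as AE2, secretes bicarbonate in exchange for chloride and in the liver is best known from bile ducts and the canalicular membrane. Its probe set J05166_at read 344, 79.1, 131 and 194 in EtOH-160, 76.6, 49 and 45 in TEN-160, 213, 199 and 156 in EtOH-220 and 377, 410.2 and 336 in TEN-220. TEN-160 lay wholly below and TEN-220 above nearly all of the rest, with 1 EtOH-160 array reaching the lowest TEN-220 values. It was 1.55 higher in EtOH-160 than in TEN-160 (SE 0.38, limma adjusted p = 0.0111), and the change in TEN-160 against TEN-220 was -2.76 (SE 0.41, adjusted p = 0.000725), the strongest of all solute carriers in these comparisons. EtOH-220 minus TEN-220 was -0.99 (unadjusted p = 0.0284, adjusted p = 0.469), with no overlap of the arrays. The companion J05166_g_at, made from the same sequence and therefore no independent measure, read 346, 343, 246 and 303 in EtOH-160, 189, 214 and 207 in TEN-160, 252, 293 and 379 in EtOH-220 and 382, 412 and 377 in TEN-220. Its changes were 0.60 (SE 0.18, adjusted p = 0.0286) and -0.94 (SE 0.19, adjusted p = 0.00466). The first of these ended without EtOH-160 replicate 1, 2 or 4 or TEN-160 replicate 1 or 3, with an adjusted p of up to 0.0864. Summed signals of cholangiocyte markers (4 of 6 genes on the array, with Spp1 under the background in every group) were 304 to 429 in EtOH-160, 306 to 335 in TEN-160, 307 to 363 in EtOH-220 and 295 to 322 in TEN-220, and their part in the Slc4a2 result was not tested.

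Slc12a4, the cotransporter KCC1 that lets potassium and chloride leave swollen cells, read 263, 169.7, 203 and 266 in EtOH-160, 80, 122 and 83.9 in TEN-160, 236, 340.3 and 259 in EtOH-220 and 264, 216 and 343 in TEN-220 on U55815_at. TEN-160 alone was low, below each of the other 10 arrays. The change was 1.24 in EtOH-160 against TEN-160 (SE 0.24, limma adjusted p = 0.00256) and -1.53 in TEN-160 against TEN-220 (SE 0.25, adjusted p = 0.00137). Its other probe set, rc_AI639049_s_at, had the same signs with smaller changes of 0.33 and -0.43, neither called.

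Slc26a1, the sulfate-anion transporter Sat-1 of hepatocyte and renal tubule membranes, read 1246, 1584, 1421 and 1168 in EtOH-160, 1262, 1111 and 1179 in TEN-160, 1143, 1239 and 1259 in EtOH-220 and 1827, 1739.8 and 1649 in TEN-220. TEN-220 was above every other array. TEN-160 minus TEN-220 was -0.55 (SE 0.15, limma adjusted p = 0.0188), a call that ended without TEN-160 replicate 2 or TEN-220 replicate 1 or 2 with an adjusted p of up to 0.0772. EtOH-160 minus TEN-160 was 0.19.

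Slc4a4, the electrogenic sodium-bicarbonate cotransporter NBCe1, was the carrier with the largest higher call in TEN-160 against TEN-220. It read 287, 457, 403 and 295 in EtOH-160, 352, 530.4 and 559 in TEN-160, 230.0, 175 and 308 in EtOH-220 and 178, 139 and 186 in TEN-220. Both 160 kcal groups were above TEN-220, and the lowest TEN-160 array exceeded the highest EtOH-220 array. The change in TEN-160 against TEN-220 was 1.5 (SE 0.26, limma adjusted p = 0.0019), and EtOH-160 minus EtOH-220 was 0.61 (unadjusted p = 0.0261, adjusted p = 0.376).

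Slc4a1 encodes band 3, the anion exchanger of red cells. Its probe set rc_AA866414_at read 157, 174, 155 and 181 in EtOH-160 and 103, 86.3 and 126 in TEN-160, and it was 0.68 higher in EtOH-160 (SE 0.20, limma adjusted p = 0.0284). The groups did not overlap, but the call ended without EtOH-160 replicate 2 or 4 or TEN-160 replicate 1 or 2, with an adjusted p of up to 0.0957. The other probe set, J04793_at, had a change of 0.19 and was not called. Hbb and Alas2, the 2 of 8 erythroid markers on the array, summed to 5250 to 9530 in EtOH-160 and 8100 to 15900 in TEN-160, ranges that overlap. Hbb, which makes up most of the sum, had a change of -0.52 (adjusted p = 0.159) and Alas2 one of 0.48 (adjusted p = 0.167), so the 2 differ in sign, and their part in the Slc4a1 result was not tested. The phosphate and urate carrier Slc17a1 had 0.82 on U28504_at (adjusted p = 0.125) and 0.44 on U28504_g_at in EtOH-160 against TEN-160. The sodium-potassium-chloride cotransporter Slc12a2 had -0.42 and 0.34 on its 2 tested probe sets, so both genes were without a call.

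**Figure D3:**
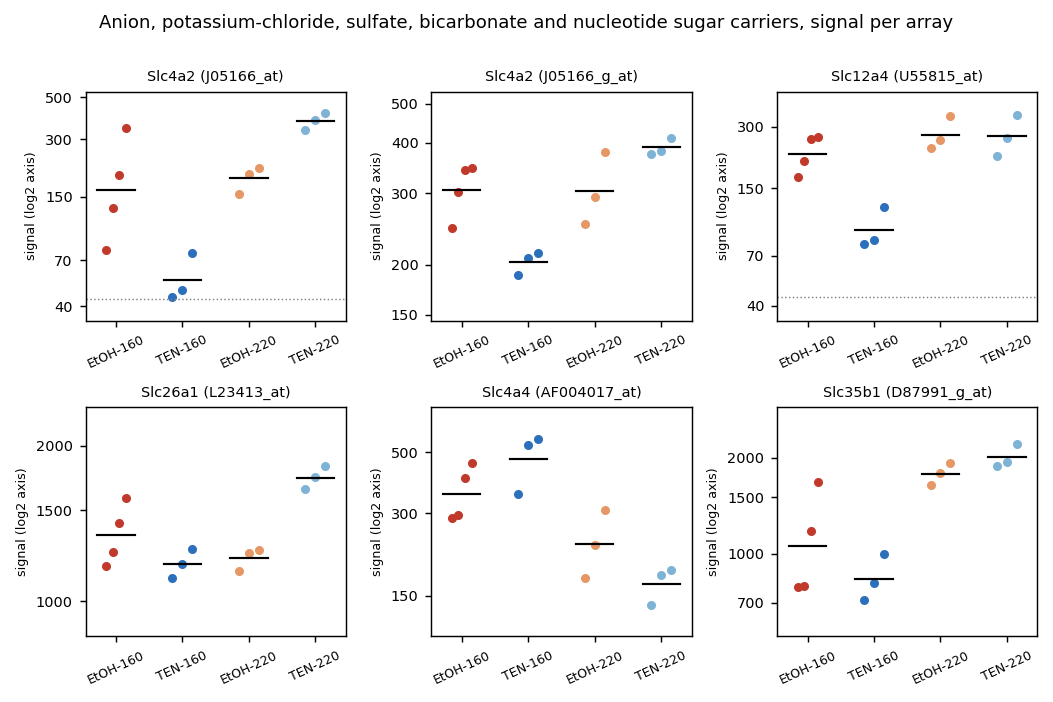
Normalized signal (y axis, log2 spacing, 1 panel per probe set) on each array of EtOH-160, TEN-160, EtOH-220 and TEN-220 for ion carriers and for the nucleotide sugar family member Slc35b1; points are arrays, bars are geometric means and the dotted line, where drawn, is the background of 43.9. TEN-160 is lowest for Slc4a2 and Slc12a4, TEN-220 is highest for Slc26a1, and both 160 kcal groups lie below both 220 kcal groups in mean for Slc35b1.

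Whether the ethanol effect differs between the energy levels is the question of the interaction, the change in EtOH-160 against TEN-160 minus the change in EtOH-220 against TEN-220. It contains the TEN-160 arrays, so diet and the array differences cannot be told apart in it. It was called for 5 probe sets of 4 genes, all higher: 4.81% of those tested, against 4.04% of all higher, 3.09% lower and 7.13% in either direction. At an unadjusted p under 0.05 there were 24 (23.1%, against 24.4% of all). Slc6a9 had 2.26 (SE 0.44, limma adjusted p = 0.0108), from a change of 1.5 at 160 kcal and -0.76 at 220 kcal. Slc4a2 had 2.55 (SE 0.56, adjusted p = 0.0172) on J05166_at and 0.96 (SE 0.26, adjusted p = 0.0415) on J05166_g_at. For both genes the sign of the change was positive at 160 kcal and negative at 220 kcal. Slc12a4 had 1.22 (SE 0.35, adjusted p = 0.0499), nearly all of it from 160 kcal, since the change at 220 kcal was 0.03. Slc26a1 had 0.70 (SE 0.20, adjusted p = 0.0494), with -0.52 at 220 kcal and 0.19 at 160 kcal.

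Only Slc6a9 kept its interaction call whichever of the 13 arrays was left out. Slc4a2 on J05166_at lost it without TEN-220 replicate 1, where the change was 2.18 and the adjusted p 0.05001. Of 13 such fits, the call stood in 2 for J05166_g_at (all but EtOH-160 replicate 3 and EtOH-220 replicate 3 ended it, with an adjusted p of up to 0.0987), in 3 for Slc12a4 (all but EtOH-160 replicate 2, TEN-160 replicate 2 and EtOH-220 replicate 2, up to 0.105) and in 1 for Slc26a1 (all but EtOH-160 replicate 4, up to 0.125). Next in order were Slc27a2 with 0.75 (adjusted p = 0.0767), Slc16a1 with -1.13 on D63834_at (0.0778) and Slc25a10 with 0.80 on AJ223355_at (0.0808), none called.

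The 250 bases before the transcription start of the 4 genes called in the interaction are shown because no others of the 115 genes were called there. Slc37a4, a solute carrier that the rule left out, was also called higher in the interaction, on both its probe sets, and is not shown. The sequences shown come from RefSeq on build GRCr8, in which 96 of the 115 genes had an entry. Each is written 5' to 3' on the gene's own strand, with capitals for a match to the GC box (GGGCGG) or to the CCAAT box (CCAAT) on either strand.
Slc4a2, chr4:11645403-11645652, minus strand: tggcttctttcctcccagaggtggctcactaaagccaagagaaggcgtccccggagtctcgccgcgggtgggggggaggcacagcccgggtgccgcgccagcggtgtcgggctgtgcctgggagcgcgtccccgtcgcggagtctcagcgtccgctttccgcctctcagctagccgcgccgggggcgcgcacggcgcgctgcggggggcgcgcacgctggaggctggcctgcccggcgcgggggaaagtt
Slc6a9, chr5:136659826-136660075, plus strand: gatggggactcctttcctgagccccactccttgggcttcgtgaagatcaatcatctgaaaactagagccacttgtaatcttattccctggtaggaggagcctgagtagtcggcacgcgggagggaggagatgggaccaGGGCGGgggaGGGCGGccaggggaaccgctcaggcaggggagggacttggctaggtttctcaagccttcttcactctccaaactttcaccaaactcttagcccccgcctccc
Slc26a1, chr14:1184721-1184970, plus strand: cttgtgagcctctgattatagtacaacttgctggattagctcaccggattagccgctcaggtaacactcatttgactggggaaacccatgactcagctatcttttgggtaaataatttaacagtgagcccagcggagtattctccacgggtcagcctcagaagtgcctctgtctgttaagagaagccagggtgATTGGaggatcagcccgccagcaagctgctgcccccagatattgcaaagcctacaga
Slc12a4, chr19:50770123-50770372, minus strand: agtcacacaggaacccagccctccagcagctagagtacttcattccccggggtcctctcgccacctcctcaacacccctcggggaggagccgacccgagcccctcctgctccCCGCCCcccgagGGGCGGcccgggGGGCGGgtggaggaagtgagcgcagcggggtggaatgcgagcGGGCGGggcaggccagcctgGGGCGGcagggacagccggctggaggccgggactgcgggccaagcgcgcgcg
The windows of Slc4a2 and Slc12a4 were rich in G and C (74.4% and 74.8%), whereas those of Slc6a9 and Slc26a1 had 58.4% and 50%. Slc12a4 held 5 GC boxes and Slc6a9 held 2, none of them overlapping, and Slc26a1 held 1 CCAAT box, which lies on the other strand. Slc4a2 held neither. None of the 4 windows held the E-box CACGTG, the amino acid response motif TGATGNAA or the TATA box TATAAA. Of 33469 promoter windows of the same length, 30.5% held a GC box, 34% a CCAAT box, 5.59% the E-box, 3.4% the amino acid response motif and 12.9% the TATA box. Among 106 windows of the solute carriers the shares were 46.2%, 34.9%, 10.4%, 1.89% and 8.49%. These matches describe letters in a window and were not related to the signals.

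Carriers of fuels and their intermediates had calls in both directions. Slc27a2 read 9872, 14288, 15437 and 12324 in EtOH-160, 6633, 6659 and 8483 in TEN-160, 10075, 13308 and 12324 in EtOH-220 and 12653, 11509.5 and 9682 in TEN-220. The TEN-160 arrays were below each of the other 10, and the other groups overlapped. It was 0.83 higher in EtOH-160 than in TEN-160 (SE 0.17, limma adjusted p = 0.0038), and TEN-160 minus TEN-220 was -0.64 (SE 0.18, adjusted p = 0.0254). The second call ended without TEN-160 replicate 1 or 2 or TEN-220 replicate 1 or 2, with an adjusted p of up to 0.104, and with values as deposited its direction turned to 0.06. The related Slc27a1, the fatty acid transport protein of muscle and fat, had levels of 380.2, 363, 347 and 362 in EtOH-160, TEN-160, EtOH-220 and TEN-220, with no change beyond 0.13.

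The group of mitochondrial carriers was formed by the family number Slc25, so it also holds the peroxisomal Slc25a17. It had 2 higher (Slc25a10 and Slc25a17) and 0 lower of 14 tested probe sets in EtOH-160 against TEN-160 (median change 0.24, beside 11.9% and 10.4% of all). In TEN-160 against TEN-220 it had 1 higher and 3 lower (median -0.28, beside 7.84% and 9.94%). The dicarboxylate carrier Slc25a10, which exchanges malate and succinate for phosphate, read 2389, 2192, 2872 and 2405 in EtOH-160, 1632, 1502 and 1987 in TEN-160, 2899, 2809.7 and 2206 in EtOH-220 and 2798, 2685 and 3123 in TEN-220 on AJ223355_g_at. TEN-160 was below every other array. The change was 0.53 in EtOH-160 against TEN-160 (SE 0.15, limma adjusted p = 0.0229), lost without EtOH-160 replicate 3 or TEN-160 replicate 1 or 2 (up to 0.0791), and -0.76 in TEN-160 against TEN-220 (SE 0.16, adjusted p = 0.00677). From the same sequence, AJ223355_at gave 0.40, not called, and -0.74 (adjusted p = 0.0179), which ended without TEN-160 replicate 1 or 2 or TEN-220 replicate 3 (up to 0.0665). The third probe set, rc_AA859666_i_at, had -0.21 and -0.06 and was not called, so the probe sets of this gene did not agree in sign at 160 kcal.

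Slc25a3, which imports the phosphate used for ATP synthesis, read 2257, 1968, 2170.1 and 2393 in EtOH-160, 1855, 1394 and 1814 in TEN-160, 3083, 2575 and 2166 in EtOH-220 and 2108, 2778 and 2664 in TEN-220. TEN-160 was below each of the other 10 arrays, and TEN-160 minus TEN-220 was -0.58 (SE 0.17, limma adjusted p = 0.0354). That call ended without TEN-160 replicate 2 or TEN-220 replicate 2 or 3, with an adjusted p of up to 0.126. The ADP/ATP carrier Slc25a5 also had its TEN-160 arrays below the other 10, with group levels of 6001 in EtOH-160, 4708 in TEN-160, 6507 in EtOH-220 and 5735 in TEN-220, but neither change (0.35 and -0.28) was called.

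Slc25a17, a carrier of peroxisomes for coenzyme A and other nucleotide cofactors, was 672, 787, 857 and 654 in EtOH-160 and 554, 472 and 585 in TEN-160. The groups did not overlap, and the change of 0.46 was called (SE 0.15, limma adjusted p = 0.0423), but 9 of 13 single arrays ended that call when left out (EtOH-160 replicate 1, 2 or 3, TEN-160 replicate 1 or 2, EtOH-220 replicate 2 and each TEN-220 array), with an adjusted p of up to 0.138. Slc25a11, the 2-oxoglutarate carrier of the malate-aspartate shuttle, was higher in TEN-160 than in TEN-220 on rc_AA859975_at, by 0.69 (SE 0.20, adjusted p = 0.0318). That probe set read 602, 512 and 597 in TEN-160 and 374, 416 and 281 in TEN-220, and the call ended without TEN-160 replicate 1 or 3 or TEN-220 replicate 1 or 3 (up to 0.122). Its other probe set, U84727_at, had -0.33 and was not called. Slc25a20, the carnitine-acylcarnitine carrier, had levels of 764, 735, 787 and 648 in EtOH-160, TEN-160, EtOH-220 and TEN-220 and no call.

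Monocarboxylate carriers, which move lactate, pyruvate and ketone bodies, had 0 higher and 2 lower of 5 tested probe sets in EtOH-160 against TEN-160, beside 11.9% and 10.4% of all. Slc16a1, or MCT1, read 446, 463, 310.2 and 362 in EtOH-160, 848, 569 and 1424 in TEN-160, 550.1, 488 and 558 in EtOH-220 and 513, 525 and 615 in TEN-220 on D63834_at. TEN-160 was above every EtOH-160 array, and its arrays differed among themselves more than those of the other groups. The change in EtOH-160 against TEN-160 was -1.18 (SE 0.25, limma adjusted p = 0.0054). On rc_AI145680_s_at, the same gene read 1022, 881, 729 and 953 in EtOH-160, 916, 901 and 1160.0 in TEN-160, 1499.5, 1163 and 1712 in EtOH-220 and 1035, 1172 and 1045 in TEN-220, and there the EtOH-220 arrays ranked high and the change at 160 kcal was -0.15.

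Slc16a7, or MCT2, with a high affinity for pyruvate and lactate, read 230.0, 304, 335 and 229 in EtOH-160, 451, 377 and 534 in TEN-160, 192, 206 and 255 in EtOH-220 and 186, 163 and 239.6 in TEN-220. TEN-160 was above each of the other 10 arrays. The level was 1.22 higher in TEN-160 than in TEN-220 (SE 0.22, limma adjusted p = 0.00231) and lower in EtOH-160 than in TEN-160, with a change of -0.73 (SE 0.21, adjusted p = 0.022). The second call ended without EtOH-160 replicate 1 or 4 or TEN-160 replicate 1 or 3, with an adjusted p of up to 0.0854, and also with arrays centred on their medians.

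Sugar carriers and their Slc5 relatives had 2 higher and 0 lower of 8 tested probe sets in EtOH-160 against TEN-160, beside 11.9% and 10.4% of all, with a median change of 0.49. Slc2a5, the fructose carrier GLUT5, read 554, 477, 433 and 457 in EtOH-160, 305, 108 and 139.7 in TEN-160, 259, 343 and 498 in EtOH-220 and 426, 314 and 252 in TEN-220 on D28562_s_at. TEN-160 was below every EtOH-160 array and overlapped both 220 kcal groups. It was 1.53 higher in EtOH-160 than in TEN-160 (SE 0.32, limma adjusted p = 0.00465). Its second probe set, D13871_s_at, read 491, 466, 432 and 574 in EtOH-160 and 474, 342 and 217 in TEN-160, which overlapped, with a change of 0.57 (adjusted p = 0.185).

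Slc5a6, the sodium-dependent carrier of biotin and pantothenate, read 266, 584, 673 and 507 in EtOH-160, 186, 257 and 303 in TEN-160, 703, 423 and 512 in EtOH-220 and 395, 571 and 359 in TEN-220. Of the EtOH-160 arrays, 1 lay within the TEN-160 range, and the change was 0.98 (SE 0.30, limma adjusted p = 0.0336). The call ended without EtOH-160 replicate 2, 3 or 4 or TEN-160 replicate 1 or 2, with an adjusted p of up to 0.131. The folate carrier Slc19a1, another vitamin carrier, had -0.04 and 0.34 on its 2 probe sets, not called.

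**Figure D4:**
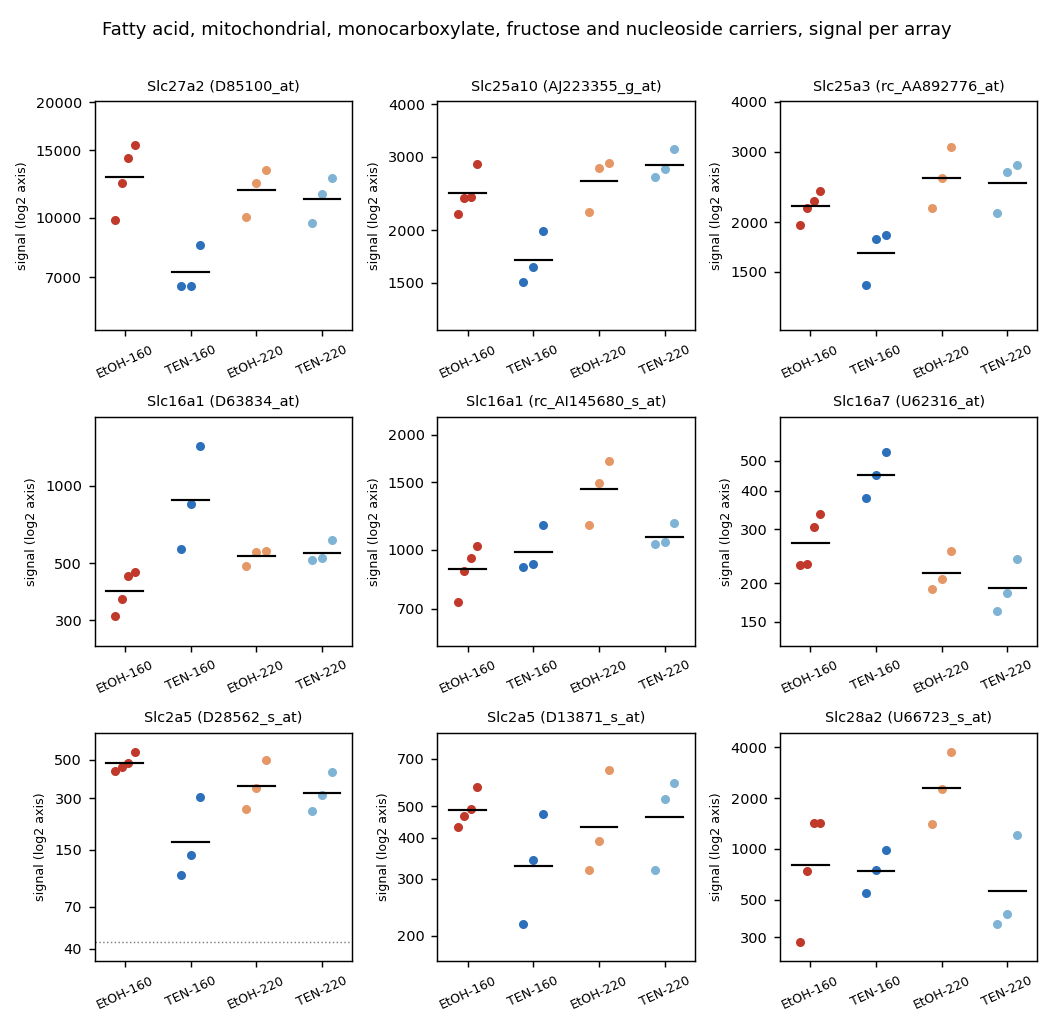
Normalized signal (y axis, log2 spacing, 1 panel per probe set) on each array of EtOH-160, TEN-160, EtOH-220 and TEN-220 for carriers of fatty acids, dicarboxylates, phosphate, monocarboxylates, fructose and nucleosides; points are arrays, bars are geometric means and the dotted line, where drawn, is the background of 43.9. TEN-160 is lowest for Slc27a2, Slc25a10 and Slc25a3 and highest for Slc16a7, and both genes with 2 panels, Slc16a1 and Slc2a5, differ between their probe sets.

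Slc35b1, a nucleotide sugar family member of the endoplasmic reticulum that is known in mammals to exchange ATP for ADP there, had the lowest levels in both 160 kcal groups. Probe set D87991_at read 908, 398, 416 and 632 in EtOH-160, 471, 494 and 358 in TEN-160, 979, 949 and 828 in EtOH-220 and 1116, 1219 and 1112 in TEN-220. All TEN-160 arrays and 3 of 4 EtOH-160 arrays were below all 220 kcal arrays. TEN-160 minus TEN-220 was -1.39 (SE 0.26, limma adjusted p = 0.00318) and, on D87991_g_at from the same sequence, -1.27 (SE 0.25, adjusted p = 0.00426). EtOH-160 minus EtOH-220 was -0.72 and -0.76 (adjusted p = 0.262 and 0.214), not called, although leaving out EtOH-160 replicate 1, the highest of its group, gave -0.98 on D87991_g_at (adjusted p = 0.0343).

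Of 4 tested probe sets for nucleoside carriers, 1 was higher in EtOH-160 than in TEN-160 (11.9% of all) and 1 lower in TEN-160 than in TEN-220 (9.94% of all), both for Slc29a2, the equilibrative carrier ENT2. It read 242, 212, 190.0 and 275 in EtOH-160, 156, 166 and 157 in TEN-160, 209.6, 229 and 217 in EtOH-220 and 236, 215 and 249.7 in TEN-220, with TEN-160 below each of the other 10 arrays. The changes were 0.51 (SE 0.16, limma adjusted p = 0.0364) and -0.55 (SE 0.17, adjusted p = 0.0425). The first ended without any of 6 single arrays (EtOH-160 replicate 1 or 4, each TEN-160 array, TEN-220 replicate 1; up to 0.0973). The second ended without any of 10, all but EtOH-160 replicate 3 or 4 or EtOH-220 replicate 1 (up to 0.122), and it turned to 0.22 with values as deposited. ENT1, encoded by Slc29a1, had changes of 0.23 and -0.17.

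Among organic ion carriers, Slc22a7, the organic anion transporter OAT2 of the sinusoidal membrane, was lower in TEN-160 than in TEN-220 on 1 of its 2 probe sets. L27651_at read 1025, 564 and 1288 in TEN-160 and 1393, 1543 and 1723 in TEN-220, without overlap, a change of -0.77 (SE 0.24, limma adjusted p = 0.0408). Without TEN-160 replicate 2 the change was -0.43 with an adjusted p of 0.121, and the call stood in 4 of 13 fits that left out 1 array; it ended also without EtOH-160 replicate 1 or 4, TEN-160 replicate 1, EtOH-220 replicate 2 or 3 or any TEN-220 array. L27651_g_at, from the same sequence, had -0.25. The carnitine carrier Slc22a5 had levels of 377, 504, 309.9 and 326 in EtOH-160, TEN-160, EtOH-220 and TEN-220 and was not called.

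Of 8 tested probe sets for metal carriers, 0 were higher and 1 lower in EtOH-160 against TEN-160, beside 11.9% and 10.4% of all, with a median change of -0.33. Slc41a2 read 1901, 2527, 2104 and 2005 in EtOH-160, 2809.7, 2988 and 2953 in TEN-160, 2917, 2991 and 3226 in EtOH-220 and 3654, 2848 and 3399 in TEN-220, so every EtOH-160 array was below every other. The change at 160 kcal was -0.46 (SE 0.13, limma adjusted p = 0.0265), a call that ended without EtOH-160 replicate 1, 3 or 4 or any TEN-160 array (up to 0.0683) and with trimmed-mean or median scaling. Slc40a1, the iron exporter ferroportin, had -0.68 and -0.69 on probe sets from 1 sequence (adjusted p = 0.119 and 0.117), not called. The iron importer Slc11a2, or DMT1, had 0.24 and 0.27.

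Ethanol at 220 kcal gave 0 calls among the 104 probe sets with limma, and 1 (0.0191%) among all 5244. At an unadjusted p under 0.05 there were 8, or 7.69%, against 9.99% of all, and EtOH-220 and TEN-220 did not overlap in 18, or 17.3%, against 17.8% of all. The smallest p was that of Slc26a1, in which all EtOH-220 arrays were below all TEN-220 arrays (change -0.52, SE 0.15, unadjusted p = 0.00332, adjusted p = 0.285). With values as deposited its direction turned, to 0.10. The sodium-coupled purine nucleoside carrier Slc28a2 (CNT2) read 1419, 1432, 281 and 738 in EtOH-160, 754, 990.4 and 546 in TEN-160, 1411, 2250.0 and 3758 in EtOH-220 and 414, 1203 and 359.7 in TEN-220. Every EtOH-220 array exceeded every TEN-220 array, but both groups spread widely: the change was 2.02 with an SE of 0.59 (unadjusted p = 0.0042, adjusted p = 0.286). Slc1a2, the glutamate carrier GLT-1, had 0.85 on rc_AI638980_at (adjusted p = 0.407) and -0.53 on U15098_at. Slc25a10 had -0.59 on rc_AA859666_i_at (adjusted p = 0.432), which became 0.06 with values as deposited.

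Undernutrition under ethanol, EtOH-160 against EtOH-220, also gave 0 calls with limma, against 15 (0.286%) of all, of which 0.21% were higher and 0.0763% lower. There were 8 probe sets at an unadjusted p under 0.05 (7.69%, against 11.1% of all), and the groups did not overlap in 8 (7.69%, against 10.2%). Slc16a1 on rc_AI145680_s_at was lowest in p, with every EtOH-160 array below every EtOH-220 array (change -0.70, SE 0.17, unadjusted p = 0.00125, adjusted p = 0.108). Slc41a2 had -0.52 (SE 0.13, adjusted p = 0.116). Slc44a4, a choline-like carrier, read 182, 255, 162 and 80.3 in EtOH-160 and 39.5, 92.4 and 49.5 in EtOH-220, with 1 overlapping array (change 1.47, SE 0.42, adjusted p = 0.173). Ethanol at 160 kcal and energy without ethanol have called probe sets and these comparisons have none, but only the interaction tested a difference between effects.

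Among the probe sets tested, the TEN-160 arrays lay wholly above the other 10 in 3 (2.88%, against 7.72% of all) and wholly below them in 10 of 9 genes (9.62%, against 7.28% of all). Above were Slc7a5, Slc16a7 and Slc25a11 on rc_AA859975_at. Below were Slc3a2 on AB015433_s_at, both probe sets of Slc4a2, Slc12a4 on U55815_at, Slc25a3, Slc25a5, Slc25a10 on AJ223355_g_at, Slc25a17, Slc27a2 and Slc29a2.

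Several genes had more than 1 tested probe set, 21 in all, which shows how far a call depends on the oligonucleotides. Their changes had the same sign in 15 of 21 genes in EtOH-160 against TEN-160 and in 14 of 21 in TEN-160 against TEN-220. Of the 7 genes with a call in the first, all probe sets were called for 2, Slc3a2 and Slc4a2. Of the 7 in the second, all were called for 2, Slc35b1 and Slc4a2. The tested probe sets of Slc4a2 come from 1 sequence, and so do those of Slc35b1, so within these genes they are not independent measures.

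**Figure D5:**
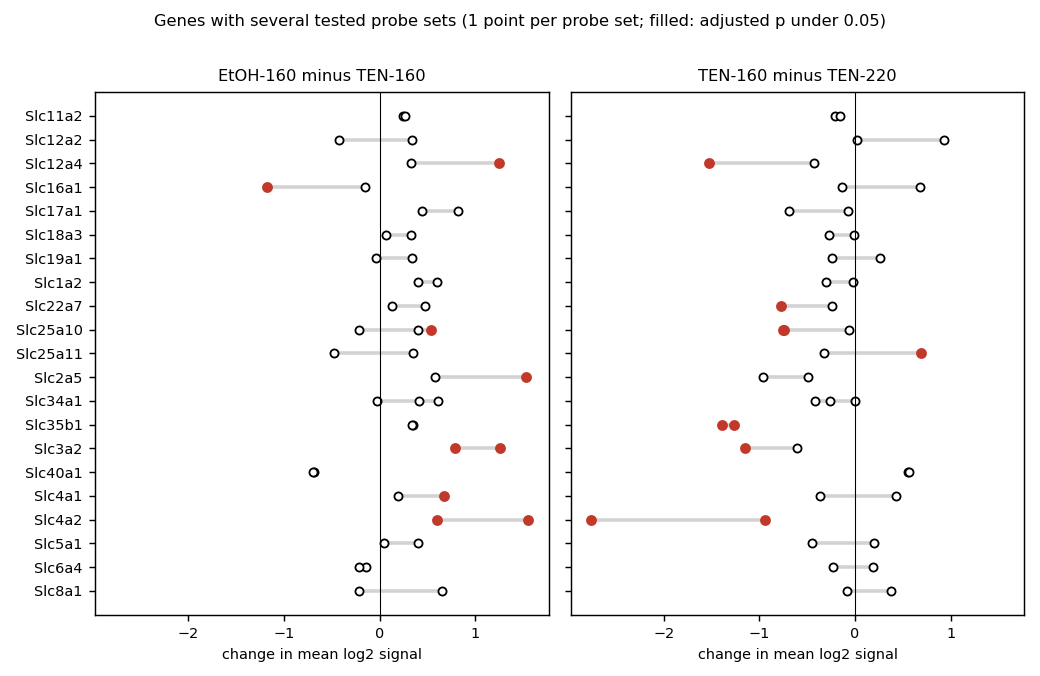
Change in mean log2 signal (x axis) of each tested probe set for the 21 genes that have more than 1 (rows), in EtOH-160 minus TEN-160 and in TEN-160 minus TEN-220; 1 circle is 1 probe set, lines join the probe sets of a gene and filled circles have an adjusted p under 0.05. Slc4a2 is filled throughout in both panels, while Slc25a10 in the first panel and Slc25a11 in the second hold a filled circle and a circle on the other side of 0.

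Other transport genes of the liver had calls in both directions in the same fit. In EtOH-160 against TEN-160, 1 of 5 tested Slco probe sets (organic anion carriers), 2 of 10 ABC transporters and 2 of 8 sodium pump probe sets were higher, with 0, 0 and 1 lower, beside 11.9% higher and 10.4% lower of all. The sodium pump subunit Atp1b1 was higher on both tested probe sets (0.80 and 0.98), and Atp1b3 was lower (-0.63). Slco2a1 was higher on M64862_at (0.83) and not called on rc_AA800797_at (0.40). The peroxisomal Abcd3 was higher on D90038_at (0.82) and had the opposite sign on rc_AA946532_at (-0.30, not called). Of 5 aquaporins, 2 were higher, among them the glycerol channel Aqp9 (1.00), and Aqp8 was lower (-0.76). In TEN-160 against TEN-220, Slco1a1 (1.00), Slco1a4 (1.32) and the phospholipid exporter Abcb4 (0.82) were higher. Abcd3 was lower there on D90038_at (-1.30), while rc_AA946532_at had 0.53, not called, although its arrays did not overlap. None of these lists had a call in the comparisons without TEN-160.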

How the data were processed

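Liver RNA of 13 samples was measured on 1 one-colour array each, with 8799 probe sets. What the authors deposited is linear signal intensity from MAS5, per the submitters' processing notes, which give no version of it. All 13 columns were used. Their 2% trimmed mean was 501 on 12 arrays and 133 on the first TEN-220 array, left at another scale.

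The 8740 non-control probe sets were quantile-normalized over the 13 arrays, which also rescales TEN-220 replicate 1. Signals under the 10th percentile (9.338) were set to it and taken to log2, and the 40% with the lowest mean were left out, which kept 5244. Group means of 4 groups were fitted on all of these with limma 3.58.1 (lmFit, eBayes with its trend option) under R 4.3.3. Tests were two-sided, and p-values were adjusted by Benjamini and Hochberg separately in the 5 comparisons. A change is a difference between group means on the log2 scale, its SE is the standard error from the model, and levels are geometric means. Few arrays limit the precision, with a median SE from 0.238 to 0.254 in pairwise comparisons. For Slc6a8 in EtOH-160 against TEN-160, a bound of the fold is given with TEN-160, which was under the background, set at 43.9. Other changes with a group under the background are given as fitted, without a bound.

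Members, substrate groups, gene lists and tests were chosen with earlier results of these data known. Named were, in each pairwise comparison, all called probe sets or, below 4 calls, the 4 of lowest p. For the interaction the 8 of lowest adjusted p were named. The 5 brightest and 5 dimmest were added, and a list of genes of known hepatic or transport interest. Other genes named were chosen after their values were seen. On that list, Slc11a1, Slc27a5, Slc34a2, Slc38a2, Slc38a3 and Slc38a4 are not analysed here. Symbols of all 175 probe sets were the same in the gene table. Promoter windows were searched with Python 3.11.15, and plots drawn with matplotlib 3.10.9. The procedure was tested on simulated data. Alternatives were other scalings, floors, filters, variance models, weights, a replicate block, 1 probe set per gene and leaving out arrays.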

Additional observations from a re-analysis of the deposited data

Results flagged for a closer look

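In limma's interaction test of the ethanol effect at both energy levels, 5 probe sets of 4 genes were called. The test contains the TEN-160 arrays, which stand apart in their control signals, so diet and array differences cannot be told apart in it. The change in EtOH-160 against TEN-160 minus the change in EtOH-220 against TEN-220 was 2.55 for Slc4a2 on J05166_at and 0.955 on J05166_g_at, 2.26 for Slc6a9, 1.22 for Slc12a4 and 0.704 for Slc26a1 on the log2 scale. Slc6a9 kept its call in all 13 fits that left out 1 array, against 12 for J05166_at (lost without TEN-220 replicate 1, adjusted p = 0.05001), 2 for J05166_g_at, 3 for Slc12a4 and 1 for Slc26a1.

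In 2 of the 31 probe sets that the rule named, 1 array of EtOH-160, the group of 4, lay far from the other 3, judged by its gap to the nearest array over the whole range of the group on the log2 scale. Slc3a2 on X89225cds_s_at read 318, 513, 542 and 545, a ratio of 0.888. Slc25a11 on rc_AA859975_at read 311, 433, 450 and 459, a ratio of 0.849. Chance flags about 1 in 20 such groups.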

How the results depend on the processing

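All counts are of probe sets called by limma. Ethanol at 160 kcal had 18, and 0 with values as deposited, 11 with the replicate block and 11 in a fit of only the 2 groups compared; leaving out 1 array gave 11 (without TEN-160 replicate 1) to 19. Energy without ethanol had 17, and 6 with values as deposited and 11 with the brightest probe set per gene; leaving out 1 array gave 11 (without TEN-220 replicate 1) to 18. Ethanol at 220 kcal had 0, and 1 with values as deposited (Slc28a2, 2.62); leaving out 1 array gave 0 throughout. Energy with ethanol had 0, and 0 to 2 with 1 array left out, 2 without EtOH-160 replicate 1, both lower. The interaction had 5, and 3 with trimmed-mean scaling, 1 (lower) with values as deposited, 11 with array medians centred, 3 with the filter at the background, 3 without a variance trend, 2 with the replicate block, 10 with array weights and 2 with the brightest probe set per gene. Leaving out 1 array gave the interaction 1 (without TEN-220 replicate 1) to 5: 2 without EtOH-220 replicate 1, TEN-220 replicate 2 or 3, and 3 without any EtOH-160 array, TEN-160 replicate 3 or EtOH-220 replicate 2 or 3. Under the other alternatives these counts stayed within 1.5 times. The causes were not tested, except that values as deposited leave TEN-220 replicate 1 unscaled, that 1 probe set per gene tests fewer and that leaving out arrays uses fewer.

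Of the called changes of named probe sets, 397 stayed called and 123 lost the call over the fits without 1 array; under the other settings 334 stayed, 85 lost it and 2 reversed. Of the uncalled, 139 stayed and 4 gained a call over the fits without 1 array; otherwise 115 stayed, 5 gained one and 2 reversed. Reversals came only with values as deposited: Slc26a1 0.0958 and Slc25a10 on rc_AA859666_i_at 0.0633 for ethanol at 220 kcal, and Slc27a2 0.0646 and Slc29a2 0.22 for energy without ethanol. That setting moved the median change of all probe sets to 0.64 for ethanol at 220 kcal, 0.70 for energy without ethanol and -0.71 for the interaction; centring array medians moved it to 0.13 for ethanol at 160 kcal, -0.15 for energy without ethanol and 0.22 for the interaction. The labels do not state whether the numbers in the sample titles pair the arrays, so the replicate block was only an alternative. Correlations of deviations between arrays of the same number were -0.112 to 0.0637. Such values cannot decide whether the arrays were paired, since pairing need not leave a shared deviation.

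The number of arrays, 3 or 4 in a group, limits all tests, and 71 of 175 probe sets were too dim to be tested.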
